A study of Mus musculus with 24 samples.

Results

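A2m, Lcn2, Selenop, Chl1 and Nap1l5 are 5 of the 12393 genes measured here. They were chosen by symbol because their signal was high in medulloblastoma cells kept with growth factors, so their differences between growth factor, parental and RAS cultures are given below as descriptions with no test. The working description of these genes was that growth factors raise them without RAS. The arrays showed this pattern for A2m and Nap1l5 and, less fully, for Selenop, but not for Lcn2 and Chl1, which were above parental cells on every RAS array of all 3 lines.

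The series holds 24 Affymetrix mouse arrays. Normal cerebellum of wild type mice was taken at P6, postnatal day 6 (2 arrays), and from an adult (1 array), and primary medulloblastoma from Ptch1 mutant adult mice (3 arrays). The cultures are SMB21, SMB55 and SMB56, lines derived from spontaneous medulloblastomas of Ptch+/- mice and grown as neurospheres in DMEM/F12 with B27 and no added growth factor. Parental cells have 8 arrays (4 of SMB21, 2 of SMB55, 2 of SMB56). The growth factor cells, labelled GF, are parental cells that then grew for over 3 weeks in medium with 20 ng/mL each of EGF and bFGF and with 0.2% heparin, and have 1 array per line, so no line has a replicate of this condition. The RAS transformed cells have 7 arrays (3 of SMB21, 2 of SMB55, 2 of SMB56), and the labels name neither the RAS gene or allele nor the way it was delivered. All cultures carry the Ptch1 mutation. Replicates are called biological, but the labels do not say which animals or cultures they came from, so p-values measure the spread between these arrays. The second P6 array carries an age label that fits no mouse tissue here, so it was grouped by its title.

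EGF and bFGF bind receptor tyrosine kinases that activate RAS and, through it, the ERK kinase cascade, so growth factor and RAS cultures share part of a pathway. A2m encodes alpha-2-macroglobulin, a large secreted inhibitor that traps proteases and is taken up through the receptor Lrp1. Lcn2 encodes lipocalin 2, a secreted acute phase protein that binds iron-carrying siderophores and is widely used as a marker of reactive astrocytes. Selenop encodes selenoprotein P, the secreted carrier that supplies selenium to brain and other organs. Chl1, close homolog of L1, is an immunoglobulin-family adhesion molecule of neurons and glia. Nap1l5 is a paternally expressed, imprinted gene of the nucleosome assembly protein family, and it lacks introns.

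The region around the annotated start is shown for the 2 genes that were also high in RAS cells, Lcn2 and Chl1, and for 2 that were high chiefly with growth factors, Nap1l5 and Selenop. Each sequence is RefSeq's, on GRCm38.p6, from 250 bases before to 50 after the start, 5′ to 3′ on the gene's strand, with capitals for matches to the motifs searched. Lcn2 lies at chr2:32387690-32387989 (minus strand), Chl1 at chr6:103510626-103510925 (plus strand), Nap1l5 at chr6:58907077-58907376 (minus strand) and the most downstream of the 3 listed starts of Selenop at chr15:3270727-3271026 (plus strand).
Lcn2: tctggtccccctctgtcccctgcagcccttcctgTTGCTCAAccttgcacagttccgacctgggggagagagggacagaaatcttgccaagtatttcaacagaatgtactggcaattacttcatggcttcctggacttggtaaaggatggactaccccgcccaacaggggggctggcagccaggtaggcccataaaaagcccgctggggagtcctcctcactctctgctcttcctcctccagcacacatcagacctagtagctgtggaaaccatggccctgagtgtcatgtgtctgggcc
Chl1: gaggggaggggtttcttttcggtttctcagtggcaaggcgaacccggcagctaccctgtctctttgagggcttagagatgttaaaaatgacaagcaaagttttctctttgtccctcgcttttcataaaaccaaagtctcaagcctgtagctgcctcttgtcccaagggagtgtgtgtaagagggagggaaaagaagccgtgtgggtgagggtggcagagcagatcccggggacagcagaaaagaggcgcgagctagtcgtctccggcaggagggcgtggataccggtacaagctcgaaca
Nap1l5: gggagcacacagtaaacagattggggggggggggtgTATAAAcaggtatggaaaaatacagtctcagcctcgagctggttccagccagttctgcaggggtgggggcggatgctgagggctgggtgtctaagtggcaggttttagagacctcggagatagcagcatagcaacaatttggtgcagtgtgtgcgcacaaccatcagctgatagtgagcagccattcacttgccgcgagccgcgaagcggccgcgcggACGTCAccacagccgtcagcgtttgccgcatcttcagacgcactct
Selenop: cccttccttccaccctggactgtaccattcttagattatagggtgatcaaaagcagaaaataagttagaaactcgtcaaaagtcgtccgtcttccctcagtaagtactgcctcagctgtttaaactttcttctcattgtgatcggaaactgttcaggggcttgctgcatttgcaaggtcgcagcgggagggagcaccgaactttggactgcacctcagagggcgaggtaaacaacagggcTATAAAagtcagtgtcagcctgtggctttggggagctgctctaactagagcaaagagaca
A few short motifs were searched on both strands, and the share of all 32851 promoter windows of the same length that hold a match is given for each. The STAT letters, TTCNNNGAA, occur in 8.3%. The C/EBP letters, TTGCNNAA, occur in 10.8%. The AP-1 letters, TGANTCA, occur in 7.81%. The core of the cyclic AMP response element, TGACGT, occurs in 7.51%. The TATA box letters, TATAAA, occur in 13.6%. The Lcn2 window held a C/EBP match, TTGCTCAA, whose first base is at -216 from the start. The Nap1l5 window held the response element core on the opposite strand, ACGTCA, at 4. It also held a TATA box match at -214. The last Selenop window held a TATA box match at -10. The Chl1 window and the other 2 Selenop windows held none of these motifs. Cebpb, which encodes a C/EBP factor, and Foxc1, a forkhead factor, appear below among the genes whose levels ran closest to Lcn2. That likeness comes from the cultures on which Lcn2 was picked, and regulation by either factor was not tested. A match is a run of letters, and binding was not measured.

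Values are log2 of the deposited intensity plus 16, called the log2 level, from 1 probe set per gene. The lower quartile of all genes lay between 6.01 and 6.28 on the 24 arrays and the median over all genes was 8.35, so levels near 6 are low and differences down there are compressed. Levels are compared between arrays and not between genes. Where a line has several arrays of a condition, differences use their mean, and a difference over lines is the mean of 3 line differences with its SD. The differences from parental cells and from RAS cells share the same 3 GF arrays.

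A2m was high in GF cells and low in all other cultures. Its log2 levels in GF cells were 9.90 in SMB21, 10.46 in SMB55 and 12.90 in SMB56 (probe set 1434719_at, chromosome 6). In parental cells they were 5.91, 5.73, 5.85 and 5.96 in SMB21, 6.01 and 5.78 in SMB55, and 5.70 and 5.80 in SMB56. In RAS cells they were 6.56, 6.12 and 6.21 in SMB21, 5.68 and 5.56 in SMB55, and 5.78 and 5.94 in SMB56. No GF array overlapped any parental or RAS array, and the SMB56 array stood above the other two. GF minus parental was 4.03, 4.56 and 7.15 in SMB21, SMB55 and SMB56 (mean 5.25, SD 1.67, n = 3 lines), a mean fold of 38.0. GF minus RAS was 3.60, 4.84 and 7.04, and RAS minus parental 0.43, -0.27 and 0.11. The parental and RAS levels lie around the arrays' lower quartile, where a smaller transcript amount cannot be told from background.

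Nap1l5 gave the largest GF minus RAS difference of all genes, and A2m the next. Its log2 levels in GF cells were 11.98 in SMB21, 10.74 in SMB55 and 11.72 in SMB56 (1417411_at, chromosome 6). Parental SMB21 stood at 7.15, 7.76, 6.78 and 8.03, parental SMB55 at 6.13 and 6.02, and parental SMB56 at 6.41 and 6.21. RAS cells stood at 6.15, 6.15 and 7.65 in SMB21, 6.05 and 5.84 in SMB55, and 6.15 and 6.14 in SMB56. GF arrays did not overlap the others, and of the RAS arrays replicate 3 of SMB21 was the highest. The difference from parental cells was 4.55, 4.67 and 5.41 by line (mean 4.88, SD 0.47, n = 3 lines, 29.4-fold). The difference from RAS cells was 5.33, 4.80 and 5.58 (mean 5.24, SD 0.40, n = 3 lines, 37.7-fold). RAS minus parental was -0.78 in SMB21 and -0.13 in SMB55, both with overlapping arrays, and -0.16 in SMB56.

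Selenop was abundant in GF cells and varied in the rest. GF levels were 13.25 in SMB21, 13.29 in SMB55 and 13.83 in SMB56 (1452141_a_at, chromosome 15). Parental levels were 10.05, 9.73, 9.41 and 9.76 in SMB21, 7.22 and 8.28 in SMB55, and 8.85 and 8.14 in SMB56. RAS levels were 8.95, 9.92 and 9.68 in SMB21, 10.96 and 8.32 in SMB55, and 10.11 and 10.41 in SMB56. GF arrays lay above every other culture, while RAS arrays overlapped parental ones in SMB21 and lay above them in SMB55 and SMB56. GF minus parental was 3.51, 5.54 and 5.34 (mean 4.80, SD 1.12, n = 3 lines, 27.8-fold). GF minus RAS was 3.73, 3.65 and 3.57 (mean 3.65, SD 0.08, n = 3 lines, 12.6-fold), nearly the same in each line. That evenness rests partly on the SMB55 RAS arrays, which differ from each other by more than 2 log2 units, and the mean was 4.09 without the first of them and 3.21 without the second. RAS minus parental was -0.22, 1.89 and 1.77.

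Lcn2 was high both with growth factors and with RAS. GF levels were 12.20 in SMB21, 11.14 in SMB55 and 11.04 in SMB56 (1427747_a_at, chromosome 2). Parental levels were 5.95, 5.74, 6.34 and 6.93 in SMB21, 5.36 and 5.57 in SMB55, and 5.45 and 5.60 in SMB56. RAS levels were 13.89, 13.68 and 13.64 in SMB21, 14.49 and 9.65 in SMB55, and 9.85 and 8.31 in SMB56. Every RAS array exceeded every parental array. The GF array lay below all RAS arrays in SMB21, between the 2 in SMB55 and above both in SMB56. GF minus parental was 5.96, 5.67 and 5.52 (mean 5.71, SD 0.22, n = 3 lines, 52.5-fold), the largest such mean of all genes at this pseudocount. Most parental Lcn2 levels lie below the lower quartile of all genes, 6.14, so this size depends on the pseudocount, with a mean of 6.21 at a pseudocount of 1 and 4.80 at 64. RAS minus parental was 7.50, 6.60 and 3.56 (mean 5.88, SD 2.06, n = 3 lines). GF minus RAS was -1.54, -0.93 and 1.96 (mean -0.17, SD 1.87, n = 3 lines), a difference smaller than its spread over lines.

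Chl1 was highest with growth factors and intermediate with RAS. GF levels were 10.21 in SMB21, 10.44 in SMB55 and 11.96 in SMB56 (1417795_at, chromosome 6). Parental levels were 5.72, 5.39, 5.60 and 5.69 in SMB21, 5.49 and 5.45 in SMB55, and 5.39 and 7.47 in SMB56. RAS levels were 9.22, 7.48 and 6.68 in SMB21, 9.00 and 9.66 in SMB55, and 10.09 and 10.87 in SMB56. Within each line the 3 conditions did not overlap and kept the order parental, RAS, GF. The second parental SMB56 array stood well above the other 7 parental arrays and above 1 RAS array of SMB21. GF minus parental was 4.61, 4.97 and 5.53 (mean 5.04, SD 0.46, n = 3 lines, 32.8-fold). Parental Chl1 was mostly below the lower quartile too, and the mean was 5.53 at a pseudocount of 1 and 4.15 at 64. RAS minus parental was 2.19, 3.86 and 4.05 (mean 3.37, SD 1.02), and GF minus RAS 2.42, 1.11 and 1.47 (mean 1.67, SD 0.68, n = 3 lines each).

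**Figure D1:**
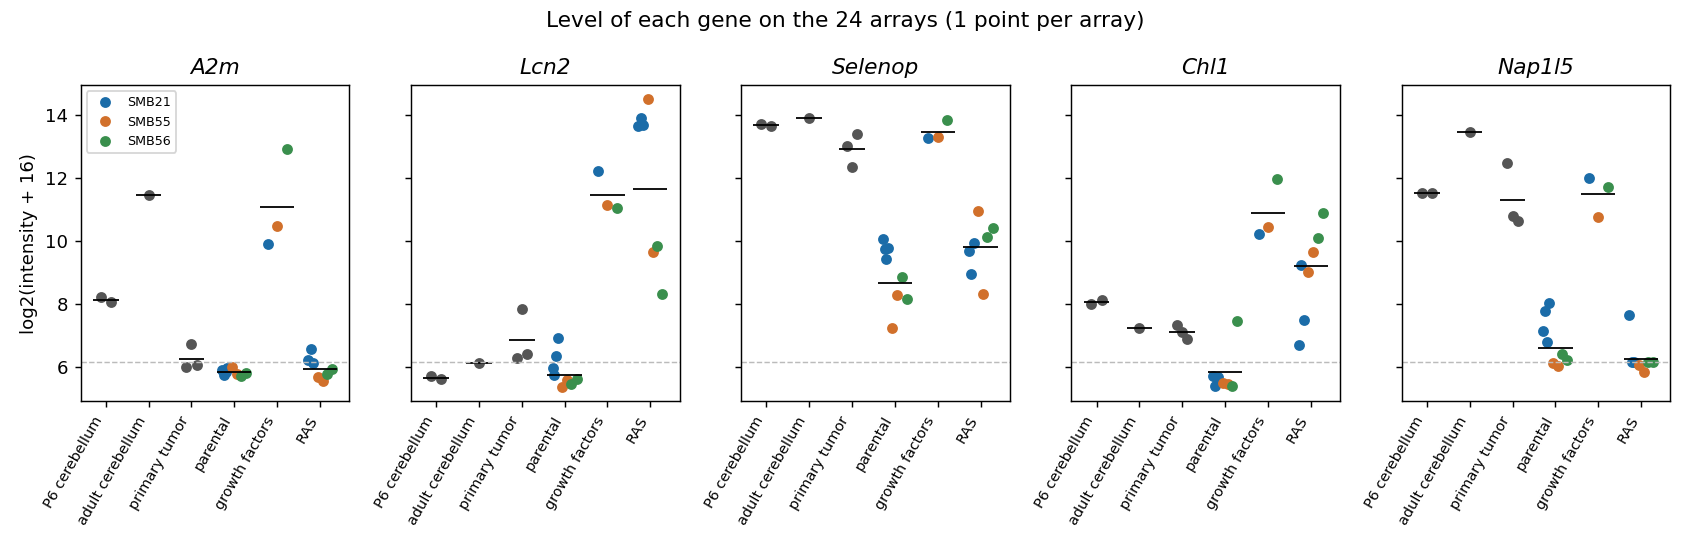
Log2(intensity + 16) of the 5 genes on all 24 arrays, 1 point per array, grey for tissue and coloured by SMB line, with black lines for group means (for cultures the mean of the 3 line means) and a dashed line at the lower quartile of all genes, 6.14. Among the cultures A2m and Nap1l5 are high in the growth factor column, Selenop is highest there but in SMB55 and SMB56 also lies above parental cells in the RAS column, and Lcn2 and Chl1 lie above parental cells in the RAS column in all 3 lines.

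In the ranking of all genes by GF minus parental, Lcn2 was 1, A2m 2, Chl1 4, Nap1l5 5 and Selenop 6 of 12393. In the ranking by GF minus RAS, Nap1l5 was 1, A2m 2, Selenop 7, Chl1 117 and Lcn2 8720. All 5 lay above parental cells on every GF array within its line, as did 8.09% of all genes. A2m, Nap1l5, Selenop and Chl1 also lay above RAS cells on every GF array (12.8% of all genes), and Lcn2 did so only in SMB56. Lcn2 and Chl1 lay above parental cells on every RAS array of all 3 lines, as did 6.75% of all genes. These counts describe genes picked on the same contrasts.

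**Figure D2:**
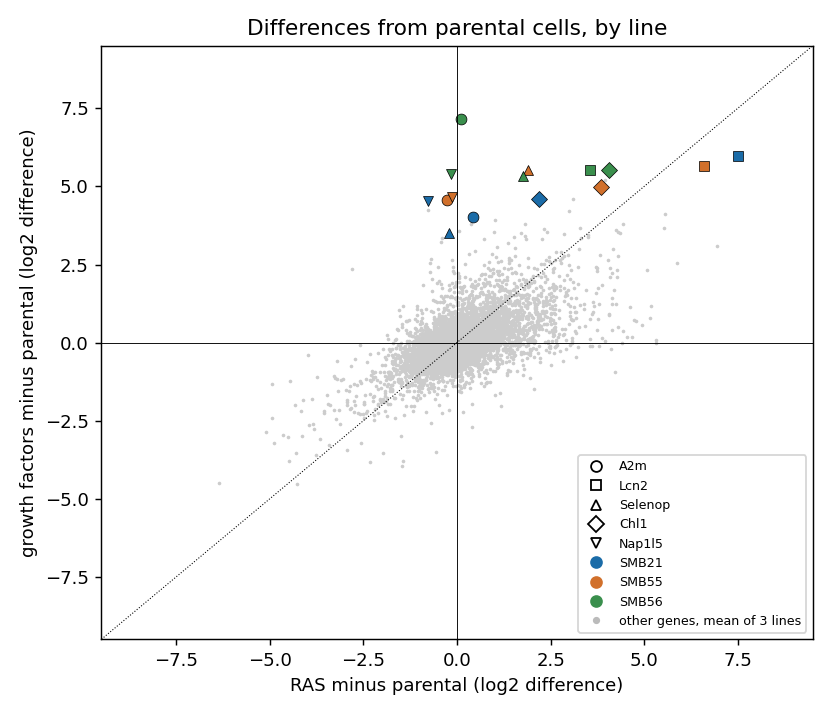
Growth factor minus parental (vertical, log2) against RAS minus parental (horizontal, log2), with 1 symbol per gene and line for the 5 genes, small grey points for the mean over 3 lines of every other gene, and a dotted line where both differences are equal. A2m and Nap1l5 lie from -0.78 to 0.43 on the horizontal axis, Selenop from -0.22 to 1.89, Chl1 from 2.19 to 4.05, and Lcn2 crosses the dotted line between SMB56 at 3.56 and SMB55 at 6.60.

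The tissues set these culture levels against the cerebellum. A2m stood at 8.21 and 8.06 at P6, 11.45 in the adult, and 6.0, 6.71 and 6.05 in the tumors. GF cells thus lay on both sides of the adult array, 2 lines below it and SMB56 above it, and all above P6. Nap1l5 stood at 11.51 and 11.53 at P6, 13.44 in the adult, and 12.46, 10.80 and 10.63 in the tumors, so GF cells reached the P6 and tumor range and lay below the adult array. Selenop stood at 13.70 and 13.64 at P6, 13.89 in the adult, and 13.02, 12.33 and 13.39 in the tumors. GF cells were on a level with these, with differences from the P6 mean between -0.42 and 0.16. Lcn2 was low in all tissue, at 5.71 and 5.61 at P6, 6.11 in the adult, and 6.27, 7.85 and 6.41 in the tumors. GF cells exceeded the P6 mean by 5.38 to 6.54. Chl1 stood at 7.98 and 8.11 at P6, 7.22 in the adult, and 7.34, 7.10 and 6.88 in the tumors, and each GF array exceeded all of them, with differences from the P6 mean of 2.17 to 3.91. These GF contrasts belong to the selection and carry no test.

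Contrasts among tissues did not enter the selection and were tested with limma over all genes, in a fit that also held the 3 parental line means. The 2 P6 arrays were nearly alike, with 10 genes over 2-fold apart against 98 to 1376 in other groups of several arrays, the parental SMB56 arrays differing most. Counting both P6 arrays as 1 sample ended no call of the 5 genes given here. In tumors against P6 cerebellum, A2m fell by 1.88 (SE 0.22, 3 tumors against 2 cerebella, adjusted p = 0.0027), 1 of the 5 genes called where 11.0% of all genes were. The call was lost with the adult array added to the P6 group (adjusted p = 0.0632) and with the replicate number as a block (adjusted p = 0.0795). Tumor A2m levels, 6.0 to 6.71, lie near the lower quartile of all genes, where differences are compressed. For the other 4 the differences were -0.94 for Chl1 (SE 0.29, adjusted p = 0.0863), 1.18 for Lcn2 (SE 0.48, adjusted p = 0.164), -0.75 for Selenop (SE 0.56, adjusted p = 0.419) and -0.22 for Nap1l5 (SE 0.61, adjusted p = 0.841). The Chl1 difference passed the threshold without the second parental SMB56 array (adjusted p = 0.0138), without the SMB56 line (adjusted p = 0.0185) and in a fit of only tumors and P6 (adjusted p = 0.0237). In the adult against P6, A2m rose by 3.32 (SE 0.29, adjusted p = 0.000472), again 1 of the 5 where 19.2% of genes were called, with 1 adult array whose spread was taken from the other groups. The other differences in the adult were 1.91 for Nap1l5 (SE 0.82, adjusted p = 0.162), -0.82 for Chl1 (SE 0.39, adjusted p = 0.2), 0.45 for Lcn2 (SE 0.65, adjusted p = 0.702) and 0.22 for Selenop (SE 0.75, adjusted p = 0.886). In a fit of only the 2 ages, whose spread comes from the 2 nearly alike P6 arrays, Nap1l5 (adjusted p = 3.77e-06), Chl1 (adjusted p = 0.000695) and Lcn2 (adjusted p = 0.0143) passed. Chl1 also passed without the second parental SMB56 array (adjusted p = 0.039) or the whole SMB56 line (adjusted p = 0.0458).

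Astrocyte genes moved beside A2m in these tissues, as did markers of some other cell types but not of all. The summed intensity of 17 astrocyte markers was 37532 to 41912 at P6, 119918 in the adult and 8047 to 9333 in the tumors. In tumors against P6, 9 of the 17 fell and 1 rose, among them Gjb6, a glial connexin (-3.46, SE 0.09, adjusted p = 2.66e-06), and Aldh1l1, a folate enzyme of astrocytes (-4.83, SE 0.14, adjusted p = 5.99e-06). Microglia markers summed to 7088 to 9400 at P6, 20634 in the adult and 16894 to 27136 in tumors. Purkinje cell markers (8 genes) summed to 29077 to 30425 at P6, 108085 in the adult and 1325 to 2887 in the tumors. For choroid plexus and ependyma markers (7 genes) these sums were 5315 to 9175, 28853 and 310 to 1696. For oligodendrocyte lineage markers (11 genes) they were 19295 to 24733, 57346 and 5539 to 9238. Other groups were lower in the adult, where A2m rose. Endothelium and pericyte markers (15 genes) summed to 12086 to 12254 at P6, 4066 in the adult and 1956 to 3580 in the tumors. For fibroblast and meninges markers (14 genes) these sums were 28083 to 31256, 16400 and 1844 to 11742. For neural stem and progenitor markers (13 genes) they were 51299 to 54193, 18858 and 12221 to 15598. In bulk tissue, fewer cells of a type and less RNA per cell cannot be told apart. The part of any of these marker groups in the A2m difference was not tested.

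Parental levels took part in the selection, because genes with a large GF minus parental difference tend to be low in parental cells, so parental cells are set against tissue as a description with no test. Parental minus P6 (3 line means against 2 cerebella) was -5.01 for Selenop, -4.92 for Nap1l5, -2.30 for A2m, -2.21 for Chl1 and 0.09 for Lcn2. Parental minus tumor (3 line means against 3 tumors) was -4.69 for Nap1l5, -4.25 for Selenop, -1.27 for Chl1, -1.10 for Lcn2 and -0.42 for A2m. Nap1l5 and Selenop were high in both tissues, lower in the parental lines and again at tissue level in GF cells. Chl1 in parental cells rests partly on the high second SMB56 array, and most parental levels of A2m, Chl1 and Lcn2 lie below the lower quartile.

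Microglial genes had far more signal in tumors than in cultures. Markers of microglia and macrophages, 17 genes, summed to 662 to 842 in parental cells, 777 to 942 in GF cells and 898 to 1644 in RAS cells, against 16894 to 27136 in tumors. The part of such cells in the parental minus tumor differences was not tested. Among cultures, 0 of the 17 microglia markers were called in GF against parental cells by limma, with 2 at an unadjusted p under 0.05.

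Lines differed within a condition. The selection did not compare lines with each other, but the parental and RAS levels used here took part in it. The p-values between lines are therefore not independent of the picking. Among RAS cells, SMB21 exceeded the mean of SMB55 and SMB56 by 0.56 for A2m (SE 0.12, adjusted p = 0.00714) and by 3.16 for Lcn2 (SE 0.86, adjusted p = 0.0227), and was lower for Chl1 (-2.11, SE 0.57, adjusted p = 0.0228). The A2m levels in question, 5.56 to 6.56, lie around the lower quartile, so this difference cannot be told from one in background. These are 3 of 5 where 23.5% of all genes were called, from 3 arrays of SMB21 and 4 of the other lines. The Lcn2 call was lost without any 1 of the SMB21 RAS arrays (adjusted p = 0.0534 to 0.0581) or the second SMB56 array (adjusted p = 0.079). The Chl1 call was lost without the SMB21 RAS replicate 2 or 3 or the second of SMB55 or SMB56 (adjusted p = 0.0619 to 0.0849). The SMB55 RAS arrays lay on either side of SMB21 for Lcn2, 1 at 14.49 above all its arrays and 1 at 9.65 below them, and the SMB21 difference was 1.95 without the lower and 4.37 without the higher. The Lcn2 difference between SMB55 and SMB56 RAS cells did not pass (2.98, SE 1.12, adjusted p = 0.201), where 2.95% of genes were called. It was 5.40 without the lower SMB55 array (adjusted p = 0.00173) and 0.56 without the higher (adjusted p = 0.861).

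The picking favours genes low in parental cells. Most parental levels of A2m, Lcn2 and Chl1 lie below the lower quartile, where differences are compressed. Among parental cells 0 of the 5 genes were called between lines by limma, where 6.49% of genes were for SMB21 against the mean of the other two and 0.541% for SMB55 against SMB56. Nap1l5 and Selenop had an unadjusted p under 0.05 in the first of these. Nap1l5 was 1.24 higher in SMB21 (SE 0.34, adjusted p = 0.0563) and Selenop 1.62 higher (SE 0.48, adjusted p = 0.0699). Nap1l5 passed the threshold in 6 of 23 alternatives (adjusted p = 0.0149 to 0.156 over all of them) and Selenop in 3 of 23 (adjusted p = 0.0142 to 0.179).

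Over the 18 cultures, A2m, Nap1l5 and Selenop ran together, with Pearson's r of 0.91 for A2m with Nap1l5, 0.86 for Selenop with Nap1l5 and 0.85 for A2m with Selenop. Lcn2 ran apart from them, with r of 0.33 with A2m, 0.24 with Nap1l5 and 0.48 with Selenop. Chl1 lay between, at 0.60 with Lcn2, 0.66 with Selenop, 0.62 with A2m and 0.43 with Nap1l5. The points share lines and rest on the 3 GF arrays, so r is a description. Of all genes at or above the median level in some group, Lcn2 was most like Cebpb, a transcription factor of the acute phase response (r = 0.932), and Foxc1, a forkhead factor (r = 0.929). Mean levels of Cebpb were 10.53 in parental, 12.32 in GF and 12.48 in RAS cells. Nap1l5 was most like Ramp1, a partner of the calcitonin-like receptor (r = 0.923), and then A2m. A2m was most like Nap1l5 and then Ndufa9, a subunit of respiratory complex I (r = 0.894). Ndufa9 was higher in GF cells than in parental cells by 0.77 and than in RAS cells by 0.91, far less than A2m. It was named for its likeness to A2m on these same arrays, so its differences are a description with no test. Chl1 was most like Epdr1 (r = 0.909) and Npnt, the matrix protein nephronectin (r = 0.903), and Selenop like Myo6, an unconventional myosin (r = 0.892), and then Nap1l5.

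Other genes were likewise higher in GF cells than in both other kinds of culture. With members left out, the 5 genes with the largest smaller difference of GF from parental and from RAS cells were Ramp1, Bex1, Chst7, Lpl and Ctsc. Ramp1 stood at 11.99, 11.28 and 11.14 in GF cells of SMB21, SMB55 and SMB56, with 8.70, 6.22 and 6.73 in parental and 7.48, 5.85 and 6.01 in RAS cells. Lpl, lipoprotein lipase, stood at 12.31, 11.21 and 12.25 in GF cells against 8.42, 7.99 and 9.26 in parental and 9.41, 5.96 and 9.10 in RAS cells, so its RAS cells lay above parental ones in SMB21 and below them in SMB55 by group mean. Ramp1, Chst7 and Lpl were high in GF cells of all lines, as A2m, Nap1l5 and Selenop were. Bex1 and Ctsc, a lysosomal protease, were at 4.91 and 5.29 in the SMB21 GF array, as low as in its parental cells, and high in the other lines. In all, 262 genes (2.11%) lay above parental and RAS cells on every GF array.

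Lists of genes from the families and pathways of the 5 genes were compared next. The threshold was limma's adjusted p under 0.05, with the members left out of each list, and 8.93% of all genes were called in GF against parental cells (3.97% higher), 32.1% in RAS against parental and 11.2% in GF against RAS cells. With the replicate number as a block, 243 genes were called in GF against parental cells, and of the calls given below those of Igf2r, Sema3a, Serping1, Gli1, 1110008P14Rik, Selenom, Serpinf1, Sephs2, Smarcad1 and Abcg2 were not among them (adjusted p = 0.0722 to 0.185). Of 29 genes of the acute phase and reactive astrocytes, to which Lcn2 and A2m belong, 8 rose and 1 fell in GF cells, and the median difference was 1.07 against -0.01 over all genes. Without the SMB56 GF array 5 rose. Cd44, a hyaluronan receptor, rose by 3.02 (SE 0.46, adjusted p = 0.00185), Cebpb by 1.93 (SE 0.36, adjusted p = 0.00438) and Cp, the ferroxidase ceruloplasmin, by 3.66 (SE 0.67, adjusted p = 0.0044). In RAS cells 15 of the 29 rose and 1 fell, with Cd44 up by 4.19 (SE 0.35, adjusted p = 2.22e-06). Lif, a cytokine that induces acute phase genes, was lower in GF than in RAS cells (-2.71, SE 0.43, adjusted p = 0.00243). The Lcn2 difference changed direction by line, at -1.54 in SMB21, -0.93 in SMB55 and 1.96 in SMB56. The GF and RAS comparisons share the parental arrays.

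Of 18 lipocalin and iron-handling genes, 4 rose and 2 fell in GF cells. Fth1, the ferritin heavy chain, rose by 1.00 (SE 0.14, adjusted p = 0.00107), and by 1.48 in RAS cells (SE 0.11, adjusted p = 8.25e-07). Without the SMB56 GF array 2 of the 18 rose in GF cells. None of the 2 falls was called without the SMB21 GF array. Apod, another lipocalin, rose in RAS cells by 4.65 (SE 0.56, adjusted p = 3.26e-05) and was lower in GF than in RAS cells (-4.37, SE 0.74, adjusted p = 0.00349).

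Around A2m, 2 of 16 genes of the macroglobulin family, their receptor and other protease inhibitors rose in GF cells and 1 fell. Lrp1, the receptor that clears A2m and its bound proteases, rose by 2.39 (SE 0.34, adjusted p = 0.00118). Serpinf1 rose by 2.70 (SE 0.66, adjusted p = 0.0207), lost without the SMB21 or SMB56 GF array (adjusted p = 0.0638 and 0.17), and Serping1, the C1 inhibitor, fell by 1.62 (SE 0.37, adjusted p = 0.0132), lost without the SMB21 GF array (adjusted p = 0.115). RAS cells, where A2m stayed low, had 7 of the 16 higher and 1 lower. Serpinf1 rose there by 6.18 (SE 0.50, adjusted p = 1.93e-06), Timp1, an inhibitor of metalloproteases, by 5.47 (SE 0.67, adjusted p = 3.78e-05) and Timp2 by 2.26 (SE 0.37, adjusted p = 0.000354). Against RAS cells, 3 of the 16 were called, all lower in GF cells, where the A2m difference was above 0 in every line. None of the 3 was called without the SMB55 GF array.

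Of 28 other selenoproteins and selenium supply genes, 0 rose and 2 fell in GF cells, with 4 at an unadjusted p under 0.05 and a median of -0.02. The falls were small and not stable. Selenom fell by 1.05 (SE 0.29, adjusted p = 0.0318), lost without the SMB21 or SMB56 GF array (adjusted p = 0.166 and 0.175) or parental SMB21 replicate 2, 3 or 4 (adjusted p = 0.0508 to 0.0521). Sephs2, which makes the selenium donor, fell by 0.64 (SE 0.19, adjusted p = 0.0476), lost in most alternatives (adjusted p up to 0.986). In RAS cells 8 rose and 4 fell, with Sephs2 down by 0.97 (SE 0.14, adjusted p = 0.000168) and Txnrd3, a thioredoxin reductase, up by 0.98 (SE 0.22, adjusted p = 0.00359).

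Of 21 genes of the L1 family and related adhesion and guidance genes, 3 rose in GF cells and 0 fell, with 10 at an unadjusted p under 0.05. Cntn3, an immunoglobulin-family adhesion molecule, rose by 3.04 (SE 0.45, adjusted p = 0.00147). Sema3a, a guidance cue, rose by 2.56 (SE 0.55, adjusted p = 0.0108), lost without the SMB56 GF array (adjusted p = 0.1). Nrp1, a receptor of Sema3a that binds Chl1, rose by 2.40 (SE 0.65, adjusted p = 0.0318), lost without the SMB56 GF array (adjusted p = 0.23), the SMB55 GF array (adjusted p = 0.0555) or parental SMB21 replicate 2 or 4 (adjusted p = 0.0504 and 0.0519). In RAS cells 7 rose and 2 fell, among them Itgb1, an integrin subunit through which Chl1 acts in cell migration (1.81, SE 0.23, adjusted p = 5.41e-05), and Itga6 (3.58, SE 0.46, adjusted p = 5.97e-05).

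Relatives of Nap1l5 and imprinted genes came last. In GF against parental cells 8.93% of all genes were called by limma, and 2870 of 12393 had an unadjusted p under 0.05. At these shares, few calls in a short list do not show that its genes stayed unchanged. Of 11 other nucleosome assembly genes, 0 were called in GF against parental cells, with 4 at an unadjusted p under 0.05. In RAS against parental cells 32.1% of all genes were called. Of the 11, 4 were called there, near that share and all lower, such as Nap1l1 (-0.45, SE 0.10, adjusted p = 0.00342). Of 39 other imprinted genes, 1 rose in GF cells, Igf2r, the receptor that clears IGF2 (1.92, SE 0.34, adjusted p = 0.00375), and 0 fell, with 11 at an unadjusted p under 0.05 and a median of -0.01. In RAS cells 4 of the 39 rose and 9 fell, including Peg3 (-3.06, SE 0.47, adjusted p = 0.000218). Together these calls also lie near the 32.1% of all genes. In tumors against P6, where the Nap1l5 difference was -0.22, its relative Nap1l3 fell by 5.16 (SE 0.46, adjusted p = 0.000923) and the imprinted RNA Meg3 by 2.68 (SE 0.23, adjusted p = 0.000757).

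**Figure D3:**
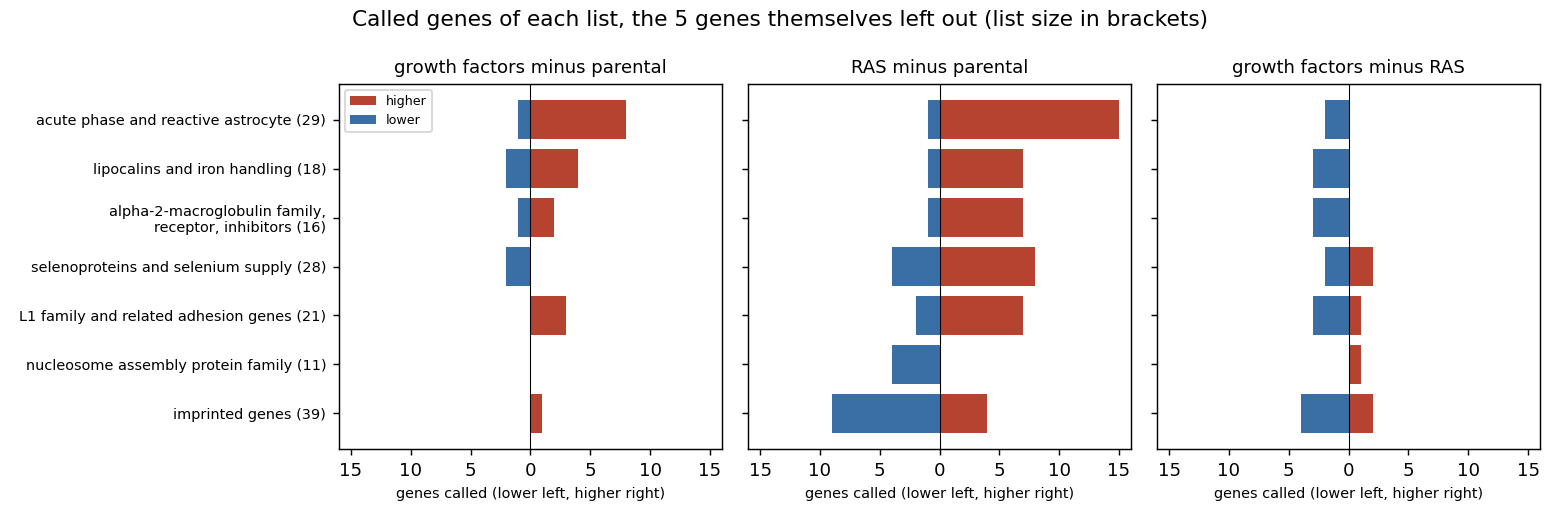
Number of genes called higher (red, right) and lower (blue, left) in each list, for growth factors minus parental, RAS minus parental and growth factors minus RAS, with the 5 genes left out and the list size in brackets. The acute phase list has 8 higher and 1 lower with growth factors and 15 higher and 1 lower with RAS, while the nucleosome assembly list has none called with growth factors against parental cells.

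The genes' neighbours were examined after the values were seen. They were taken as the nearest 2 measured genes on each side in GRCm38.p6 order, whatever their distance. Those of A2m and Selenop had mean GF minus parental differences between -0.05 and 0.43, for example Mug1, a macroglobulin family gene beside A2m (0.02, SE 0.07, adjusted p = 0.925). Beside Chl1, Cntn3 rose as given above, and Cntn6 and Cntn4, of the same family, did not pass. Beside Lcn2, Slc25a25, a mitochondrial carrier, rose by 0.93 (SE 0.17, adjusted p = 0.00401) and 1110008P14Rik by 1.88 (SE 0.40, adjusted p = 0.0104), the latter lost without the SMB21 or SMB56 GF array (adjusted p = 0.0844 and 0.0529). Beside Nap1l5, Abcg2, a drug efflux transporter, rose by 1.94 (SE 0.47, adjusted p = 0.0189), lost without the SMB21 or SMB56 GF array (adjusted p = 0.0791 and 0.0917). On its other side Atoh1, the basic helix-loop-helix factor that specifies granule neurons, dropped by 4.59 (SE 0.78, adjusted p = 0.0029). The Atoh1 difference was -6.34 in SMB21 and -6.14 in SMB56 but -0.98 in SMB55. Smarcad1, a chromatin remodeller, dropped by 0.71 (SE 0.18, adjusted p = 0.0205), lost without the SMB21 or SMB56 GF array (adjusted p = 0.133 and 0.147). Of the measured genes next to Nap1l5 in this order, Abcg2 on one side was thus higher in GF cells and Atoh1 on the other lower. Genes that were not measured can lie between them and Nap1l5. A2m, Chl1 and Nap1l5 all lie on chromosome 6. Its 722 other measured genes had median GF minus parental differences of 0.01, 0.13 and 0.03 in SMB21, SMB55 and SMB56. In SMB55 the medians of other chromosomes lay between -0.1 and 0.06. In tumors minus P6 the chromosome 6 medians were 0.18, 0.24 and 0.17, against -0.04 to 0.08 on other chromosomes. The part of these shifts in the differences of the 3 genes was not tested.

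**Figure D4:**
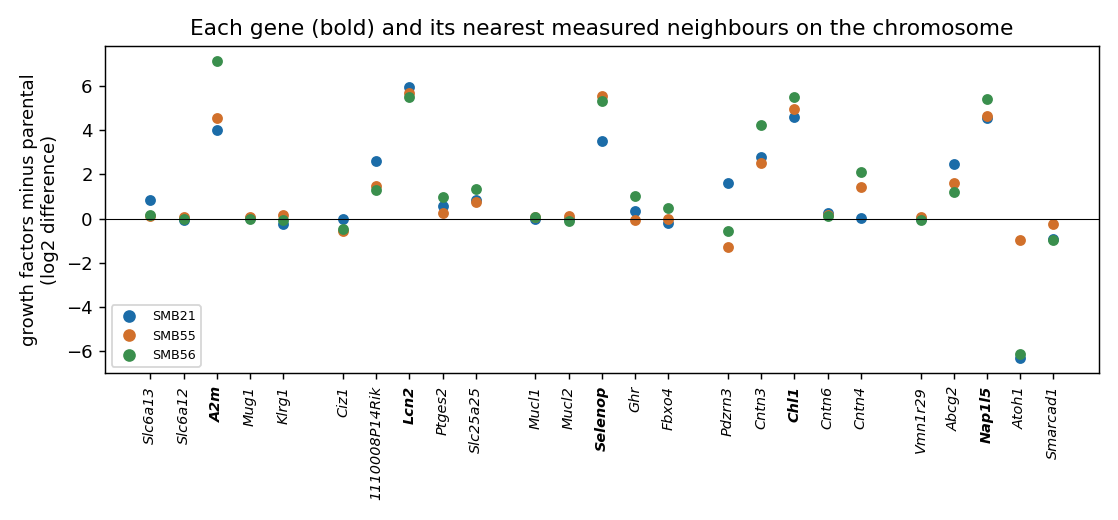
Growth factor minus parental log2 difference in each line for the 5 genes (bold) and the nearest 2 measured genes on each side, in chromosome order. The neighbours of A2m and Selenop lie between -0.23 and 1.00, Cntn3 beside Chl1 lies between 2.52 and 4.26, and Atoh1 beside Nap1l5 reaches -6.34.

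The labels of the cultures were checked with genes that respond to the treatments. Dusp6 and Spry2, feedback inhibitors induced by ERK signalling, rose in GF cells by 1.93 (SE 0.34, adjusted p = 0.00385) and 2.52 (SE 0.29, adjusted p = 0.000289) and in RAS cells by 2.78 and 1.33. Of 17 ERK feedback and early response genes 10 rose in GF cells and 13 in RAS cells. That count in GF cells was 6 without the SMB21 GF array. Lcn2 and Chl1 were likewise higher than parental cells in both kinds of culture, and A2m and Nap1l5 clearly so in GF cells. Atoh1 fell in both (-4.59 and -6.45), as did Gli1, a Hedgehog target (-2.04 and -2.75), though its fall in GF cells was lost without the SMB56 array (adjusted p = 0.117). Of 14 granule neuron lineage markers 5 fell in GF cells (3 without the SMB56 array) and 10 in RAS cells. The 17 astrocyte markers summed to 5307 to 25063 in parental, 21154 to 33597 in GF and 8167 to 36289 in RAS cells, and 3 of them rose in GF cells, among them Acsbg1, a fatty acid enzyme (3.33, SE 0.61, adjusted p = 0.0043), and Slc4a4, a bicarbonate transporter (2.24, SE 0.36, adjusted p = 0.00244). Against RAS cells, 2 of the 17 were higher in GF cells, Slc4a4 (1.45, SE 0.37, adjusted p = 0.022) and Slc1a3 (1.81, SE 0.53, adjusted p = 0.0409). Without the SMB56 GF array 0 were called higher. The 1 lower in GF than in RAS cells was Gja1, the astrocyte connexin (-4.31, SE 0.70, adjusted p = 0.00258). A2m, Selenop and Lcn2 are also expressed by glia, and the part of astrocyte-like cells in their GF levels was not tested.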

How the data were processed

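RNA of 24 mouse samples was hybridized to Affymetrix arrays. The authors deposited 1 linear intensity per probe set and array; the steps from scans to these intensities were not given in the sources used here. Medians of the arrays lay between 188.8 and 245.1. Of 22690 probe sets, 20380 had 1 gene symbol in the platform annotation, 691 several and 1555 none, and 64 were controls; 20351 matched the GRCm38.p6 gene table, and 0 symbols changed. Per gene the probe set with the highest mean was kept (12393 genes), as log2 of the intensity plus 16; each of the 5 genes has 1 probe set. limma 3.58.1 in R 4.3.3 (lmFit, eBayes, two-sided, Benjamini-Hochberg over all genes, threshold 0.05) fitted tissues with 3 parental line means, cultures with treatment and line as terms, and lines within treatment. The scripts were tested on simulated data. Some genes of the lists were not analysed here. The genes and the gene lists were chosen with earlier results of these data known. Named list genes are up to 3 called genes per list and comparison by smallest p, plus Dusp6, Spry2, Gli1 and Atoh1; genes like a member have the highest r over 18 cultures, leaving out clone-like names and genes under the median level. Alternatives were pseudocount, centring, quantile normalization, probe set choice, dropping low genes, variance prior, grouping, replicate block and leaving out each array. The number of arrays limits precision, with 1 GF array per line.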

Additional observations from a re-analysis of the deposited data

Results flagged for a closer look

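Chl1 in the second parental SMB56 array had a log2 level of 7.47, far from the other 7 parental arrays, which lay between 5.39 and 5.72. Nap1l5 in SMB21 RAS replicate 3 had a log2 level of 7.65, far from the other 6 RAS arrays, which lay between 5.84 and 6.15. Over the 15 groups of arrays examined, chance would mark about 1 in 20 such groups. A2m differed between lines in direction: all RAS arrays lay above all parental arrays in SMB21 (RAS minus parental 0.43) and below them in SMB55 (-0.27), and this difference between lines was not tested. All these A2m levels, 5.56 to 6.56, lie around the arrays' lower quartile and cannot be told from background.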

How the results depend on the processing

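The replicate numbers were not taken to pair the arrays, because the labels do not say that they mark a shared culture or day. After line and treatment were removed, GF arrays correlated with the parental array of the same number at 0.216, 0.062 and 0.055. RAS with parental pairs lay at -0.606 to -0.141 for the same number and at -0.548 to -0.043 for other numbers. Removing both terms pushes such values below 0, so their sign cannot decide on pairing. GF arrays did correlate best with the parental array of their own number in each line, the others lying at -0.273 to -0.14, a hint from the data only. With only treatment removed, GF with parental arrays of one line gave 0.104 to 0.339 for the same number and 0.11 to 0.273 for other numbers. With the replicate block, called genes went from 1107 to 243 in GF minus parental, from 1384 to 161 in GF minus RAS and from 1361 to 415 in tumor minus P6, where the Nap1l5 difference turned to 0.11. The block also ended the GF minus RAS calls of Serpinf1 (adjusted p = 0.0665) and Timp1 (adjusted p = 0.0797). With the P6 arrays as 1 sample, an alternative added after seeing the data, called genes were 329 in tumor minus P6, 1112 in adult minus P6 and 952 in parental minus P6. Fits of only the groups compared gave 6292 in adult minus P6, 1686 in parental minus tumor and 898 in GF minus RAS. Parental minus tumor gave 1373 with both cerebellum ages as 1 group and 1574 without SMB56. Leaving out 1 array gave 341 to 1401 in tumor minus P6, 1107 to 2729 in adult minus P6, 970 to 3698 in parental minus P6, 1606 to 2643 in parental minus tumor, 401 (without the SMB56 GF array) to 1187 in GF minus parental, 457 (without the SMB55 GF array) to 1660 in GF minus RAS and 3425 to 4124 in RAS minus parental. For lines it gave 256 to 1674 for parental SMB21 against the others, 24 to 484 for parental SMB55 minus SMB56, 1765 to 3308 for RAS SMB21 against the others and 29 to 509 for RAS SMB55 minus SMB56. Signs that turned belong to differences that were not called: Lcn2 in parental minus P6 (-0.07 with both cerebellum ages as 1 group, -0.16 without SMB21) and in parental SMB55 minus SMB56 (0.05 without the first SMB55 array, 0.02 without the second SMB56 array), A2m in parental SMB21 against the others (0.10 without the first SMB55 array, -0.02 without the second), Chl1 without the second parental SMB56 array (0.17 for SMB21 against the others, 0.08 for SMB55 minus SMB56, and -0.87 and -2.0 without the first), Selenop in RAS cells (for SMB21 against the others 0.23 without the first SMB55 array and -1.09 without the second, for SMB55 minus SMB56 -1.94 and 0.70) and Nap1l5 in tumor minus P6 (-0.81 without tumor 1, 0.03 without tumor 2, 0.11 without tumor 3). The one turned sign of a called value was that of Sephs2 in GF minus parental (0.01 with the probe set of the largest variance). The causes were not tested. Over 24 alternatives GF minus parental stayed between 4.30 and 5.86 for A2m, 4.80 and 6.21 for Lcn2, 4.43 and 5.44 for Selenop, 4.15 and 5.53 for Chl1 and 4.29 and 5.14 for Nap1l5.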
